A study of Mus musculus with 3 samples.

Results

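The genes described here are 39 mouse genes of the Nrf2 pathway, glutathione metabolism and the wider antioxidant defence, chosen as a list of gene symbols. Of these, 36 had a probe set that GEO's platform annotation assigns to a single gene, out of 19938 genes measured in that way, and probe sets of the same gene were averaged. Prdx5, Prdx6 and G6pdx had no such probe set and were not analysed here. RNA came from CT26, a mouse colon carcinoma line grown with 10% fetal bovine serum. In order of cluster level, the groups were miR-Ctrl (Ctrl), cells stably transfected with the PIG-miR-Ctrl vector, and miR-17~92Med (Med) and miR-17~92Hi (Hi), cells with the matching vector of the wild-type cluster, which the labels describe as expressing it at a medium and a high level. Cells of all 3 groups carried GFP and puromycin resistance, were sorted for GFP after drug selection, and were then cloned by serial dilution, so each group rests on clones. The design text names 3 subclones per group, while each group has 1 column of values. The labels do not say whether that is a single clone, a pool or a mean. Each group was treated as 1 sample, so the differences below carry no error estimate and are statements on 3 columns. In RNA from many cells, fewer expressing cells and less RNA per cell cannot be told apart.

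Nrf2, encoded by Nfe2l2, is a transcription factor that the adaptor Keap1 holds for degradation until oxidants or electrophiles modify Keap1. Released Nrf2 pairs with small Maf proteins at antioxidant response elements, and its known targets include genes for glutathione synthesis, glutathione transferases, thioredoxin enzymes, pentose phosphate enzymes that supply NADPH, and drug efflux pumps. In tumour cells the pathway is known for tolerance of oxidative stress and of drugs. The transfected cluster encodes microRNAs of several seed families, and the seed is the stretch that pairs with target mRNAs.

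The mature microRNAs define what the Med and Hi cells received, and they are shown from RefSeq (GRCm38.p6) with the seed, bases 2 to 8, in capitals. miR-17-5p and miR-20a-5p share a seed, as do miR-19a-3p and miR-19b-3p.
mmu-miR-17-5p: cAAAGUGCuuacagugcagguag
mmu-miR-20a-5p: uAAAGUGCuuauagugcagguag
mmu-miR-18a-5p: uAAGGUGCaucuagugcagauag
mmu-miR-19a-3p: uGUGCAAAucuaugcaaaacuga
mmu-miR-19b-3p: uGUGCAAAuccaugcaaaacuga
mmu-miR-92a-3p: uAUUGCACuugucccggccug

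Promoter windows from RefSeq (GRCm38.p6), 250 bases before to 50 after a gene's start, were found for 33 of the 39 members. Abcc1, Gclc, Gsr, Gsta4, Hmox1 and Prdx6 had none in the table. The core of the antioxidant response element, TGACNNNGC, was searched on both strands. It stood in a window of 11 members (33.3%), against 3781 of 27025 genes (14.0%). Members with several starts had several windows, and over windows the counts were 11 of 41 (26.8%), against 4071 of 32851 (12.4%). The AP-1 element TGACTCA, which can lie inside the core, stood in 4 members (12.1%), against 1607 of all genes (5.95%), and Prdx1 was the member whose core contains it. Windows of 4 members that were 2-fold apart from Ctrl and hold a core are shown with the core in capitals. Of the other members with a core, Abcb1a, Gstm5, Mgst1 and Txnrd1 were listed at the same value in every column, Pgd and Sod1 were 2-fold higher in Med and Hi than in Ctrl, and G6pdx was not analysed here. The window of the first listed start of Gstm1, the member 2-fold apart between Hi and Med, is shown for comparison and holds neither motif. A match is a description of letters and no sign of binding.
Nfe2l2 (chr2:75704614-75704913, minus strand): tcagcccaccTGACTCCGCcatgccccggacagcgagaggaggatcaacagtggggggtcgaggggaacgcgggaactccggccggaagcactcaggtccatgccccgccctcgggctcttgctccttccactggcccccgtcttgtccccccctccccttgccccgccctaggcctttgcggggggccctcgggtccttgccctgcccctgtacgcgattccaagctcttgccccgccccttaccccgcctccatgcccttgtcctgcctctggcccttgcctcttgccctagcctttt
Prdx1 (chr4:116685349-116685648, plus strand): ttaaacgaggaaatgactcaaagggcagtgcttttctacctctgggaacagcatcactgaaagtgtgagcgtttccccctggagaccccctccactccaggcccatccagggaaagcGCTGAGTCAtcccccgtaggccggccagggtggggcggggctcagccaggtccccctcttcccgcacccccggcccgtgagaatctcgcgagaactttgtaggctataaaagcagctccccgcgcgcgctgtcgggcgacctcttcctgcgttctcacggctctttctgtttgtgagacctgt
Gclm (chr3:122245307-122245606, plus strand): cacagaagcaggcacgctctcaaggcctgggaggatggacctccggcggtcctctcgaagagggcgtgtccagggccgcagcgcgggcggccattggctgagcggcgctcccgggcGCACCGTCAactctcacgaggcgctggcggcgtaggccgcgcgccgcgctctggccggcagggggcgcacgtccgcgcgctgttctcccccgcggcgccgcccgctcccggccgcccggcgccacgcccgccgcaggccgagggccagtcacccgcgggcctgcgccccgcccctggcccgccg
Srxn1 (chr2:152105274-152105573, plus strand): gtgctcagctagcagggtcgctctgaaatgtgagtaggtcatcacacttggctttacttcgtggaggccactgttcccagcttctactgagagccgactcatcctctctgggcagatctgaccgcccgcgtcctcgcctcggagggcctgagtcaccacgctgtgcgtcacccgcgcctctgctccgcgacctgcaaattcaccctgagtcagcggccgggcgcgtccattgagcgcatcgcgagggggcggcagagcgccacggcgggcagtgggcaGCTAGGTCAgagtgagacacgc
Gstm1 (chr3:108017924-108018223, minus strand): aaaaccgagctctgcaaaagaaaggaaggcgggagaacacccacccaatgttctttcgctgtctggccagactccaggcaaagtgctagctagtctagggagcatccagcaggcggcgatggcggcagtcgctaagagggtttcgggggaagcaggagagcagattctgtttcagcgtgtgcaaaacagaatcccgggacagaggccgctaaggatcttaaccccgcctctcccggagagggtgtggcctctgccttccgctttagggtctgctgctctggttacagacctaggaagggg
The core began at position -240 from the start of Nfe2l2, at -133 in Prdx1, at -134 in Gclm and at 29 in Srxn1, as read along the gene's strand. In Nfe2l2 it lay on the gene's own strand, and in the other 3 on the opposite strand. The windows of Prdx1 and Srxn1 each held 2 AP-1 elements, of which that inside the core of Prdx1 was counted in both.

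The Ctrl column stood apart from the others. Across 35556 probe sets it correlated at r = 0.787 with Med and 0.795 with Hi, while Hi and Med correlated at 0.992, and genes are not independent replicates. The mitochondrially encoded COX2, a cytochrome oxidase subunit, was at 6.00 in Ctrl cells, 13.40 in Med cells and 13.31 in Hi cells, and ND3 was at 5.07, 12.49 and 12.21 in the same order. Both Ctrl values lie below the background gauge of 6.87 given below. Whether the Ctrl array holds RNA comparable with that of the others was not tested, and neither was the part of these values in the differences from Ctrl below, so those differences cannot be assigned to the cluster. The difference of Hi from Med is taken without the Ctrl values. Whether the Ctrl array entered the submitters' processing of Med and Hi is not stated. Quantile normalization, loess and the level filter below draw on all 3 columns. The host transcript Mir17hg, at 5.98 in Ctrl and 6.02 in Med and Hi, gave no check of the labels. Olfactory and vomeronasal receptor genes, 1194 in all, served as a gauge of background, with 95th percentiles of 6.87 in Ctrl cells, 6.18 in Med cells and 6.20 in Hi cells. Of 10 colon epithelial markers, 5 lay above this gauge in Ctrl and 6 in each of Med and Hi. Krt18 was at 7.97 in Ctrl cells, 11.41 in Med cells and 12.28 in Hi cells, while its keratin partner Krt8 (8.92, 7.28 and 7.32) and the intestinal factor Cdx1 (8.95, 7.24 and 7.45) were lower in Med and Hi. Epcam, Vil1, Cdx2 and Krt20 lay at or below the gauge in every column. Of 5 leukocyte markers measured, 2 lay above it in each column. They were Cd3e (7.95, 6.61 and 6.73, in the same order) and Cd68 (7.18, 9.12 and 7.67). Ptprc, which marks leukocytes, lay below it throughout. Among 3 endothelial markers 2 passed the gauge in each column, and among 5 mesenchymal markers 4 did. Colon markers thus passed the gauge no more often than endothelial or mesenchymal ones.

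Most of the measured antioxidant genes were higher in Med and Hi cells than in Ctrl cells, with Gstp1, Prdx2, Prdx3 and Nfe2l2 furthest above. In Med, 24 of 36 members (66.7%) were at least 2-fold higher than in Ctrl and none was 2-fold lower, beside 18.3% of all genes upward and 16.3% downward. In Hi the counts were again 24 higher and 0 lower, beside 17.5% higher and 15.4% lower over all genes. Members had a median log2 difference of 1.78 in Med and 1.80 in Hi, while the median over all genes was -0.20 and -0.19. Many genes on the array lie near background, so the same shares were taken over the 9969 genes with a 3-column mean at or above the median gene, 7.13. There 34.9% of genes passed 2-fold upward and 8.7% downward in Med cells. For Hi cells these shares were 33.5% upward and 8.4% downward. Med and Hi supply 2 of the 3 columns in that mean, so genes high in them pass more easily than genes high in Ctrl, and the filter itself shapes this balance. Of the members, 33 reached that level, and Slc7a11, Gstm5 and Mgst1 did not. Both comparisons share the Ctrl column, so they are not separate support for each other.

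**Figure D1:**
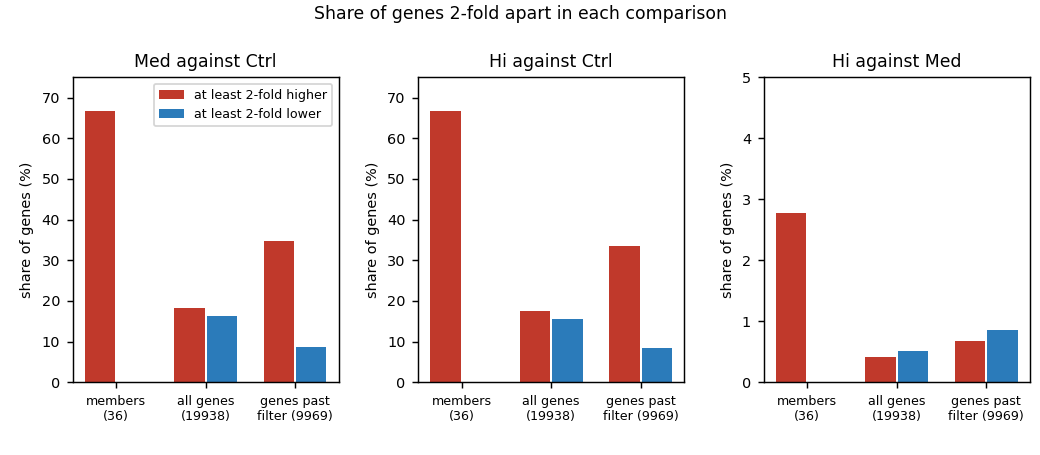
Share of genes at least 2-fold higher (red) or lower (blue) in percent, for the 36 measured members, all 19938 genes and the 9969 genes past the level filter, for each of the 3 pairs of columns (panels). Members reach 66.7% higher in both comparisons with Ctrl, and 2.78% (1 gene) in Hi against Med, where the axis ends at 5%.

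The counts depended on how the columns were scaled, while most members lay above the median gene. Quantile normalization left 18 members 2-fold higher in each of Med and Hi, and 2 lower in Med and 1 in Hi, where 13.9% of all genes were higher and 15.5% lower in Med, and 13.6% and 14.7% in Hi. Cyclic loess left 16 higher and 1 lower in each, beside 13.6% and 6.98% of all genes in Med and 13.0% and 6.39% in Hi. Centring every column on its median over all probe sets moved the median of all genes up by 0.30 in Med and 0.29 in Hi, and gave 25 and 26 members higher, beside 22.2% and 21.3% of all genes. Centring on the genes past the level filter, an alternative chosen after the data were seen, moved it by -0.60 and -0.54, and gave 20 and 19 higher and 2 lower in each. All genes then stood at 11.9% higher and 42.8% lower in Med, and 11.6% and 40.2% in Hi. Loess moved it by 0.14 in both, and quantile normalization by -0.10 in both. Of all genes 2-fold apart between Med and Ctrl, 52.9% were higher in the deposited values, 76.5% with columns centred on all probe sets, 47.3% with quantile normalization, 66.1% with loess and 21.7% with columns centred on genes past the filter. For Hi the same shares were 53.1%, 78.0%, 48.0%, 67.0% and 22.4%. Relative to the median of all genes, 34 of 36 members were higher in each of Med and Hi as deposited, 30 in each with quantile normalization, and 27 in Med and 29 in Hi with loess. Centring shifts every gene alike and cannot change that count, and the 34 include 6 members with the same value in every column.

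**Figure D2:**
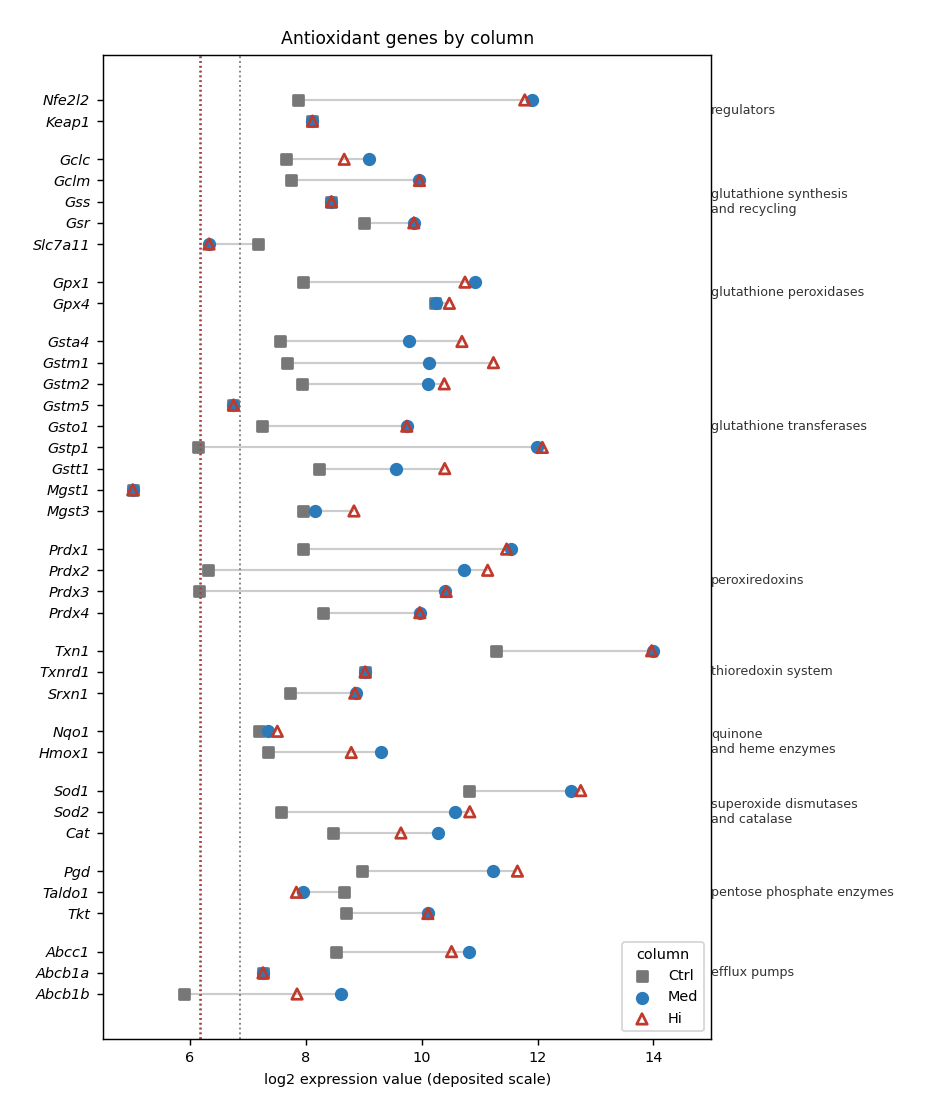
Deposited log2 expression value (x axis) of the 36 measured members (rows, grouped by role) in Ctrl (grey squares), Med (blue circles) and Hi (open red triangles), with 1 value per column and no error bars. Dotted lines mark the 95th percentile of receptor genes in each column (6.87 in Ctrl cells, 6.18 in Med cells and 6.20 in Hi cells). Gstp1, Prdx2 and Prdx3 have the longest lines, and Keap1, Gss, Gstm5, Mgst1, Txnrd1 and Abcb1a are at a single point.

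The regulator Nfe2l2 was among the members furthest above Ctrl. Nfe2l2 was at 7.86 in Ctrl cells, 11.91 in Med cells and 11.78 in Hi cells. Med was thus 16.5-fold and Hi 15.1-fold above Ctrl, and Med and Hi lay close to each other. The log2 differences from Ctrl, 4.05 and 3.92 as deposited, depended on scaling. They were 4.34 and 4.21 with columns centred on all probe sets, and 3.36 and 3.29 with quantile normalization. With loess they were 2.65 and 2.56, and with centring on genes past the filter 3.45 and 3.38. Keap1, which targets Nrf2 for degradation, was listed at 8.12 in every column. Such exact ties, to the last deposited decimal, are not a measurement of equal expression.

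Glutathione is made by glutamate-cysteine ligase, with the catalytic subunit Gclc and the modifier subunit Gclm, and then by the synthetase Gss. Gclm was at 9.96 in both Med and Hi, against 7.75 in Ctrl, a 4.62-fold difference. On the log2 scale that is 2.21, which became 1.38 in Med and 1.40 in Hi under loess. Gclc was at 7.66 in Ctrl cells, 9.10 in Med cells and 8.66 in Hi cells, which placed Hi at 2.01-fold over Ctrl, at the edge of the 2-fold limit, and it was under that limit with quantile and loess scaling (0.73 and 0.63). With filter-based centring Gclc was under it in both Med (0.85) and Hi (0.47). Gss was at 8.44 in every column. Gsr, the reductase that recycles oxidized glutathione, was at 9.86 in Med and Hi, against 9.00 in Ctrl, which is under 2-fold. Its sign turned with quantile and loess scaling, while with columns centred on all probe sets it passed 2-fold (1.16 in Med and 1.15 in Hi). Slc7a11, the cystine transporter subunit, was at 6.33 in Med and Hi, against 7.18 in Ctrl. It was 1 of only 2 members lower than Ctrl, and its Med and Hi values lie close to the receptor gauge. With filter-based centring it was 2-fold lower (-1.44 in Med and -1.39 in Hi). Its differences were smaller with quantile normalization (-0.60 and -0.63), centring on all probe sets (-0.55 and -0.56) and loess (-0.21 and -0.23).

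Glutathione peroxidases reduce peroxides with glutathione. Gpx1, the main cytosolic form, was at 7.96 in Ctrl cells, 10.91 in Med cells and 10.75 in Hi cells, so that Med was 7.76-fold and Hi 6.92-fold higher. Its log2 differences of 2.96 and 2.79 became 1.83 and 1.69 under loess. Gpx4, which reduces lipid peroxides, was at 10.23 in Ctrl cells, 10.25 in Med cells and 10.48 in Hi cells. It was within 2-fold as deposited, and lay below Ctrl under quantile normalization, loess and filter-based centring, by -1.18, -1.30 and -0.58 in Med and by -0.93, -1.03 and -0.29 in Hi. It was thus 2-fold lower in Med under the first 2 of these and in Hi under loess.

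Glutathione transferases couple glutathione to electrophiles. Of 9 measured, 6 (66.7%) were 2-fold higher than Ctrl in each of Med and Hi and none was lower. Among all genes, 18.3% were 2-fold higher in Med and 17.5% in Hi. Gstp1, the pi class enzyme, was at 6.14 in Ctrl cells, 11.99 in Med cells and 12.08 in Hi cells, differences of 5.85 and 5.95. Its Ctrl value lies below the receptor gauge, so the size of the fold is not known. A pair of probe sets that the annotation shares between Gstp1 and its neighbour Gstp2 showed smaller differences from Ctrl, 1.71 and 1.97 in Med and 1.68 and 1.97 in Hi. Gstm1 and Gstm2, mu class enzymes, were both higher than Ctrl. Gstm1 was at 7.68 in Ctrl cells, 10.12 in Med cells and 11.24 in Hi cells, and Gstm2 at 7.94, 10.10 and 10.39 in the same order. Gstm5, which lies in the same gene cluster, was at 6.75 in every column. The mu class genes are close copies, so their probe sets may share signal.

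The remaining transferases divided between higher values and values within 2-fold of Ctrl. Gsta4, an alpha class enzyme that acts on lipid peroxidation products, was at 7.56 in Ctrl cells, 9.78 in Med cells and 10.70 in Hi cells. Gstt1, of the theta class, was at 8.23 in Ctrl cells, 9.56 in Med cells and 10.40 in Hi cells. Its difference from Ctrl in Med, 1.34, was under 2-fold with quantile, loess and filter-based scaling (0.67, 0.42 and 0.74). Gsto1, of the omega class, was at 9.74 in Med and Hi, against 7.24 in Ctrl. The microsomal Mgst3 was at 7.95 in Ctrl cells, 8.15 in Med cells and 8.83 in Hi cells, within 2-fold in both comparisons as deposited. With columns centred on all probe sets its difference in Hi passed 2-fold (1.17). Mgst1, another microsomal form, was at 5.01 in every column, below the receptor gauge in each.

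Peroxiredoxins reduce hydrogen peroxide through thioredoxin, and all 4 measured were over 2-fold higher than Ctrl in both Med and Hi. Among all genes, 18.3% were 2-fold higher in Med and 17.5% in Hi. Prdx3, the mitochondrial form, was at 6.16 in Ctrl cells, 10.39 in Med cells and 10.42 in Hi cells. Prdx2 was at 6.31 in Ctrl cells, 10.73 in Med cells and 11.14 in Hi cells as the mean of its probe sets. The Ctrl values of both lie below the receptor gauge. Prdx1 was at 7.96 in Ctrl cells, 11.55 in Med cells and 11.47 in Hi cells as the mean of its probe sets, of which the lower in Ctrl also lies below the gauge. Prdx4, of the endoplasmic reticulum, was at 9.97 in Med and Hi, against 8.29 in Ctrl, a difference of 1.67 that was under 2-fold with quantile and loess scaling (0.93 and 0.75 for Med).

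Separate probe sets of Prdx1 and Prdx2 gave differences of unequal size. For Prdx2, a probe set was at 4.51 in Ctrl cells, 11.79 in Med cells and 12.28 in Hi cells, while the other was at 8.12, 9.67 and 10.00 in that order. Prdx1 had a probe set at 9.38 in Ctrl and 11.82 in both Med and Hi, and another at 6.54 in Ctrl cells, 11.28 in Med cells and 11.11 in Hi cells. The Prdx1 probe set above the gauge in Ctrl differed by 2.44 in both Med and Hi, and the other by 4.74 and 4.58. Each of these probe sets put Med and Hi more than 2-fold above Ctrl, and for Prdx2 the difference of Med from Ctrl ranged from 1.55 to 7.29. The Gpx4 probe sets differed little from each other, with Hi above Med by 0.23 and 0.24.

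**Figure D3:**
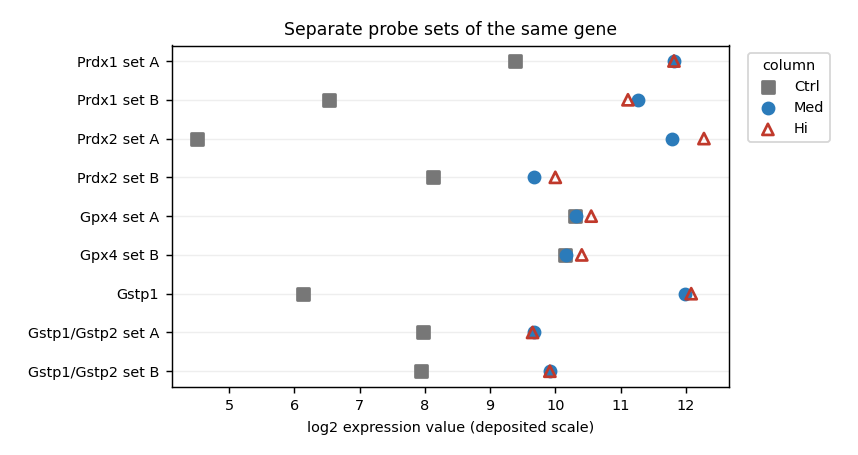
Deposited log2 value (x axis) of each probe set (rows) annotated to Prdx1, Prdx2, Gpx4 and Gstp1, and of those shared by Gstp1 and Gstp2, in Ctrl (grey squares), Med (blue circles) and Hi (open red triangles). Prdx2 set A is at 12.28 in Hi and 4.51 in Ctrl, and set B at 10.00 in Hi and 8.12 in Ctrl, with the same direction.

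Of the thioredoxin system, Txn1 and Srxn1 were higher than Ctrl. Txn1, thioredoxin itself, was at 11.29 in Ctrl cells, 14.00 in Med cells and 13.97 in Hi cells, near the upper end of the deposited range of 2.13 to 14.8. Its differences of 2.71 in Med and 2.68 in Hi shrank to 0.35 and 0.37 under loess, and the cause of that change was not tested. Srxn1, which restores overoxidized peroxiredoxins, was at 7.72 in Ctrl cells, 8.86 in Med cells and 8.85 in Hi cells, and was under 2-fold in quantile, loess and filter-based scaling. Txnrd1, the reductase of thioredoxin, was at 9.02 in every column. Nqo1, a quinone reductase widely used as an Nrf2 target, was at 7.19 in Ctrl cells, 7.35 in Med cells and 7.51 in Hi cells, within 2-fold in each comparison. Hmox1, which degrades heme, was at 7.35 in Ctrl cells, 9.29 in Med cells and 8.79 in Hi cells, 3.84-fold and 2.70-fold above Ctrl, and in Hi its difference was 0.89 with filter-based centring.

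Superoxide dismutases turn superoxide into hydrogen peroxide, which catalase breaks down. Sod2, the mitochondrial form, was at 7.57 in Ctrl cells, 10.58 in Med cells and 10.83 in Hi cells. Sod1, the cytosolic form, was at 10.82 in Ctrl cells, 12.57 in Med cells and 12.75 in Hi cells, and its differences from Ctrl of 1.75 and 1.92 became 0.40 and 0.61 under quantile normalization and -0.24 and -0.02 under loess. Cat, catalase, was at 8.47 in Ctrl cells, 10.29 in Med cells and 9.64 in Hi cells. Its difference from Ctrl was under 2-fold with quantile normalization (0.98 in Med and 0.45 in Hi), with loess (0.86 and 0.24) and, in Hi, with filter-based centring (0.63). In the pentose phosphate pathway, Pgd, which yields NADPH, was at 8.98 in Ctrl cells, 11.22 in Med cells and 11.65 in Hi cells, and its difference in Med was 0.81 under loess. The transketolase Tkt was at 10.11 in Med and Hi, against 8.69 in Ctrl, and was under 2-fold with quantile (0.54 and 0.58), loess (0.39 and 0.41) and filter-based scaling (0.82 and 0.87). The transaldolase Taldo1 was at 8.65 in Ctrl cells, 7.95 in Med cells and 7.84 in Hi cells, the other member lower than Ctrl, and was 2-fold lower under quantile (-1.30 and -1.38) and filter-based scaling (-1.30 and -1.35).

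The efflux pumps export drugs and conjugates. Abcc1, which carries glutathione conjugates, was at 8.52 in Ctrl cells, 10.81 in Med cells and 10.52 in Hi cells, and its difference in Hi was 0.87 under loess. Abcb1a and Abcb1b are neighbouring P-glycoprotein genes. Abcb1b was at 5.89 in Ctrl cells, 8.60 in Med cells and 7.85 in Hi cells, its Ctrl value lying below the receptor gauge. Abcb1a was listed at 7.26 in every column, another exact tie.

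Between Hi and Med, glutathione transferases included the members furthest higher in Hi, and Abcb1b and Cat were furthest lower. Of 36 members, 13 (36.1%) were higher in Hi than in Med, 11 (30.6%) lower and 12 (33.3%) identical, with a median difference of 0.00, as over all genes. The all-gene shares were 25.3% higher, 23.6% lower and 51.1% identical. Gstm1, 2.17-fold higher in Hi (a log2 difference of 1.12), was the only member 2-fold apart, or 2.78% of members, where 0.406% of all genes were 2-fold higher and 0.512% lower. Over genes past the level filter these shares were 0.682% and 0.863%. Gstm1 stayed the only member 2-fold apart under each scaling tried.

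At a limit of 1.5-fold, 4 members (11.1%) were higher in Hi and 2 (5.56%) lower, where 1.01% of all genes were higher and 2.04% lower. All 4 higher ones were transferases: Gstm1, Gsta4 (1.89-fold), Gstt1 (1.79-fold) and Mgst3 (1.60-fold). The lower ones were Abcb1b, at 7.85 in Hi against 8.60 in Med (a difference of -0.75), and Cat, at 9.64 in Hi against 10.29 in Med (-0.64). Of the 9 transferases, 6 (66.7%) were higher in Hi, 3 (33.3%) identical and none lower, beside 25.3% of all genes higher, 51.1% identical and 23.6% lower. Hmox1 and Gclc were lower in Hi by under 1.5-fold (-0.51 and -0.44), and Pgd and Prdx2 were higher (0.43 and 0.41). Nfe2l2 itself was at 11.78 in Hi and 11.91 in Med, a difference of -0.13. With 1 column per group, none of these differences can be set against a spread between samples. Each group rests on clones, so differences between clones and between cluster levels cannot be told apart.

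**Figure D4:**
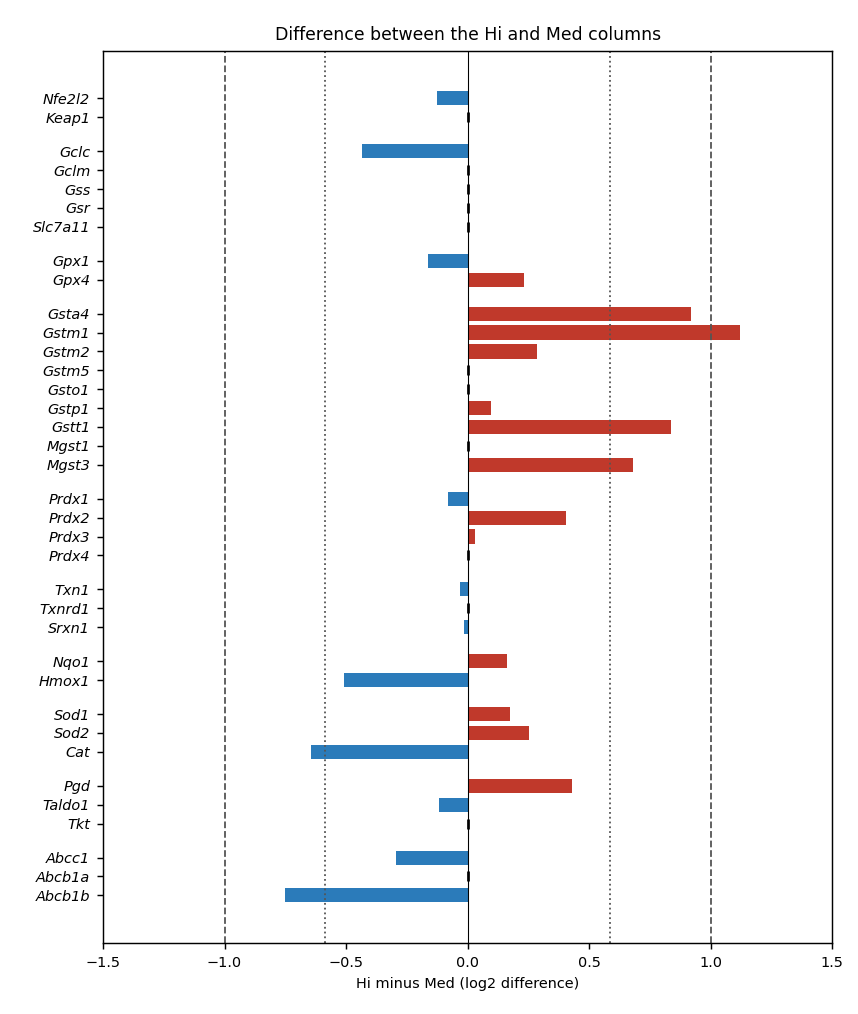
Log2 difference of Hi minus Med (x axis) for the 36 measured members, grouped by role as in the plot of levels, with no error bars since each group has 1 column. Dashed lines mark 2-fold and dotted lines 1.5-fold, and ticks at 0 mark the 12 members with identical values. Gstm1 passes the dashed line at 1.12, and Abcb1b is lowest at -0.75.

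A wider list of the pathway held 73 further genes, of which 69 were measured, and it held genes on both sides of Ctrl. In Med 24 (34.8%) were at least 2-fold higher and 3 (4.35%) lower than Ctrl, and in Hi 25 (36.2%) were higher and 4 (5.80%) lower, with medians of 0.31 and 0.21. The upward shares exceed those of all genes (18.3% and 17.5%). Of the 49 list genes past the level filter, 49.0% were higher in Med and 51.0% in Hi. Among all genes past it, 34.9% and 33.5% were. Genes high in Med and Hi pass that filter more easily, so these filtered shares are partly shaped by it. Among the higher ones, Gpx8, a peroxidase of the endoplasmic reticulum, was at 6.63 in Ctrl cells, 11.96 in Med cells and 11.56 in Hi cells, with its Ctrl value below the receptor gauge. Slc3a2, the heavy chain that pairs with Slc7a11, was at 8.37 in Ctrl cells, 12.16 in Med cells and 12.17 in Hi cells. Slc7a11 was lower than Ctrl, but near the receptor gauge, which was itself lower in Med and Hi. Its small difference may be background, so the directions of the pair cannot be compared. The ferritin light chain Ftl1 was at 8.92 in Ctrl cells, 12.41 in Med cells and 12.90 in Hi cells, and the glutaredoxin Glrx at 6.28, 9.52 and 10.13 in that order. The aldo-keto reductase Akr1b8 was at 6.52 in Ctrl cells, 10.36 in Med cells and 9.85 in Hi cells, and malic enzyme Me1, which yields NADPH, at 7.08, 10.65 and 10.07 in that order. The Ctrl values of Glrx and Akr1b8 also lie below the receptor gauge.

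Lower than Ctrl were mostly genes with low values in Med and Hi. Gpx7 was at 7.30 in Ctrl cells, 5.49 in Med cells and 5.58 in Hi cells, Gpx2 at 7.16, 6.17 and 5.81, and Gpx3 at 6.74 in Ctrl and 5.62 in both others. Abcc2, an efflux pump, was at 6.61 in Ctrl cells, 5.34 in Med cells and 5.41 in Hi cells. Nfe2l3, a relative of Nfe2l2, was at 7.41, 6.47 and 6.66, and the transferase Gsta3 at 6.30, 5.47 and 5.65, both within 2-fold. Gpx3, Abcc2 and Gsta3 lie below the receptor gauge in every column, and Gpx7 and Gpx2 do so in Med and Hi. The sizes of these differences are therefore not known. None of 7 genes for small Maf proteins, the Bach repressors and the Cul3 ligase was 2-fold apart in any comparison. Most genes were within 2-fold as well: 13027 of 19938 between Med and Ctrl, 13376 between Hi and Ctrl and 19755 between Hi and Med. Maff, Bach1 and Bach2 were exact ties in every column, so this count says little about the 7 genes. Among 11 further transferases, 3 (27.3%) were 2-fold higher than Ctrl in each of Med and Hi and none lower. The shares of all genes in Med and Hi were 18.3% and 17.5% higher, and 16.3% and 15.4% lower. The other mu class genes Gstm3, Gstm4, Gstm6 and Gstm7, picked after their values were seen, differed from Ctrl by -0.63 to -0.36, unlike Gstm1 and Gstm2. Gstm4 and Gstm6 lay below the receptor gauge in every column. The median of the receptor genes was itself lower, at 4.92 in Ctrl and 4.51 in Med and Hi, so these small differences may be background.

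In Hi against Med, 4 genes of the wider list (5.80%) were 2-fold higher and none was lower, with 30 higher by any amount (43.5%), 14 lower (20.3%) and 25 identical (36.2%). Over all genes 0.406% were 2-fold higher and 0.512% lower, and 25.3% were higher by any amount, 23.6% lower and 51.1% identical. Past the level filter, 0.682% of genes were 2-fold higher and 0.863% lower, beside 8.16% and 0% of the list genes past it. The list, like the members, was chosen with earlier results of these data known, so these shares are not independent support. Aldh3a1, an aldehyde dehydrogenase, was at 7.39 in Ctrl cells, 8.40 in Med cells and 11.16 in Hi cells, and Hi lay 2.76 above Med. Txnip, which binds and inhibits thioredoxin, was at 8.71 in Ctrl cells, 9.01 in Med cells and 11.12 in Hi cells, so that its Med value was close to Ctrl. Idh1, the cytosolic isocitrate dehydrogenase that yields NADPH, was at 7.69 in Ctrl cells, 9.98 in Med cells and 11.88 in Hi cells. The epoxide hydrolase Ephx1 was at 6.52 in Ctrl cells, 8.36 in Med cells and 9.37 in Hi cells, with Hi just past 2-fold over Med. Of the 11 further transferases, Hi against Med gave 4 higher, 4 lower and 3 identical and none past 1.5-fold. Over all 20 measured transferases, 10 were higher in Hi than in Med, 4 lower and 6 identical.

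**Figure D5:**
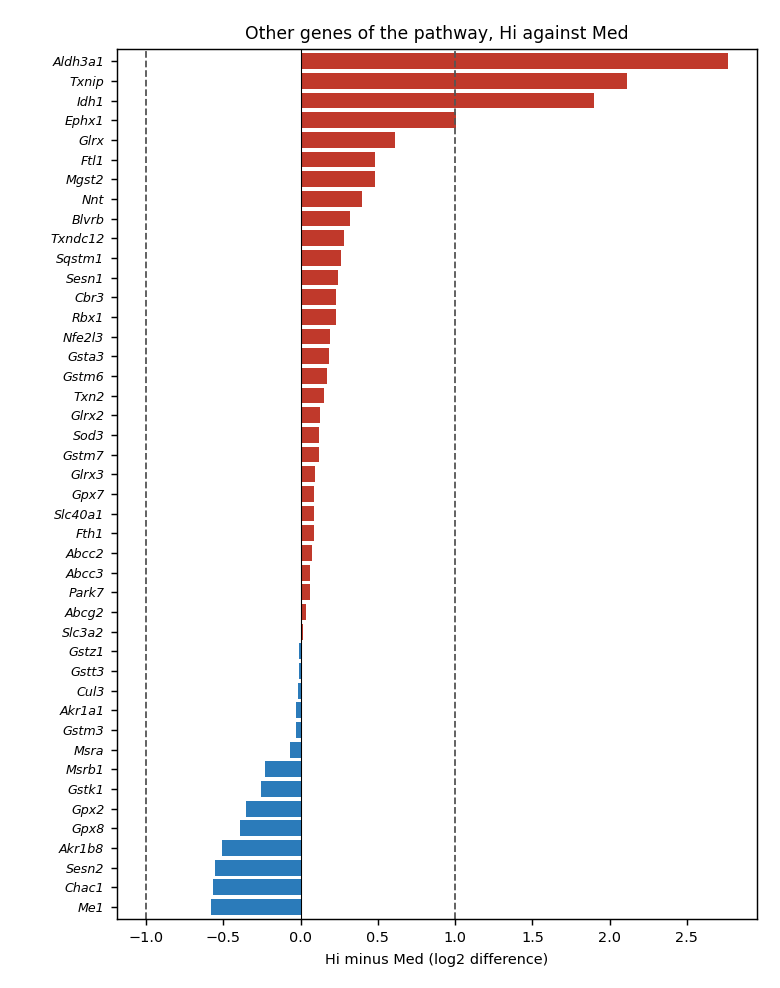
Log2 difference of Hi minus Med (x axis) for the 44 genes of the wider list with unequal values in these columns, sorted by size, with dashed lines at 2-fold. Aldh3a1, Txnip, Idh1 and Ephx1 reach the line on the right and no gene reaches it on the left.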

How the data were processed

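Expression was measured on an Affymetrix mouse array in 3 samples, 1 for each of Ctrl, Med and Hi. Linear amplification started from 100 ng of RNA with T7-linked random primers, and the product was labelled with biotin, per the labels' protocols. The submitters' processing notes name Affymetrix Expression Console and GCRMA, with no version or role. The deposited values were taken as log2 from their range, 2.13 to 14.8, and any normalization or pooling of subclones came before deposit. The precision is limited by the number of arrays.

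Gene symbols came from GEO's platform annotation, updated by gene number to RefSeq's table for GRCm38.p6 (99.6% of 21789 single-gene probe sets matched). Differences of log2 values were computed with Python 3.11.15, pandas 2.3.3 and numpy 2.4.6, loess scaling with limma 3.58.1, and the counting was tested on simulated data. A log2 difference of 1 was called 2-fold. No p-value was computed.

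The members and lists were chosen with earlier results of these data known. Every measured member is named. Of the wider list, genes 2-fold apart between Hi and Med were named, and up to 6 others per direction with the largest difference from Ctrl.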

Additional observations from a re-analysis of the deposited data

How the results depend on the processing

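With Hi against Med, Gstm1 was the only member 2-fold apart under every alternative but the lower limit of 1.5-fold, which gave 4 members higher and 2 lower. Against Ctrl, the members' median difference, 1.78 in Med and 1.80 in Hi as deposited, was 2.08 and 2.09 with columns centred on all probe sets, 1.03 and 1.07 with quantile normalization, 0.78 and 0.76 with cyclic loess, 1.18 and 1.26 with columns centred on genes past the level filter (chosen after the data were seen) and 1.94 and 1.96 over the 33 members past that filter, which drops Slc7a11, Gstm5 and Mgst1, so that this rise follows from its construction and is no check. Members 2-fold lower, 0 as deposited, numbered 2 in Med and 1 in Hi with quantile normalization, 1 and 1 with loess, and 2 and 2 with filter-based centring. Signs against Ctrl turned for Gsr (-0.0724 in Med and -0.0355 in Hi), Mgst3 in Med (-0.19) and Gpx4 (-1.18 in Med and -0.93 in Hi) with quantile normalization. With loess they turned for Gsr (-0.14 and -0.11), Sod1 (-0.24 and -0.0231), Mgst3 in Med (-0.0851) and Gpx4 (-1.30 and -1.03). Filter-based centring turned them for Nqo1 (-0.44 and -0.22), Mgst3 in Med (-0.40) and Gpx4 (-0.58 and -0.29). The cause of these shifts was not tested. Taking the highest probe set of a gene left the members' counts as they were. The difference of Med from Ctrl then moved from 4.42 to 7.29 for Prdx2 and from 3.59 to 2.44 for Prdx1. With 1 column per group, no paired analysis was possible and no replicate could be left out. Levels near the receptor gauge limit the size of folds for Gstp1, Prdx1, Prdx2, Prdx3 and Abcb1b in Ctrl.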

Other observations

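Exact ties between Hi and Med were found in 12 of 36 antioxidant genes (33.3%), a smaller share than the 51.1% of all genes. Keap1, Gss, Gstm5, Mgst1, Txnrd1 and Abcb1a, 6 of 36 members (16.7%), held the same deposited value in all 3 columns, to the last decimal, where 8.70% of all genes did. Past the level filter, which drops Gstm5 and Mgst1, these shares were close, at 4 of 33 members (12.1%) beside 10.5% of genes. A further 6 members (16.7%) were identical in Hi and Med alone, against 42.4% of all genes. No member was identical in Med and Ctrl alone or in Hi and Ctrl alone, where 0.833% and 1.37% of all genes were. No label or header names the step that made these ties, so an identical value is not a measurement of equal expression. Among the 7 genes for small Maf, Bach and Cul3 ligase proteins, 5 (71.4%) were identical in Hi and Med, against 51.1% of all genes. Both include genes tied in every column, here Maff, Bach1 and Bach2.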
